A study of Mus musculus with 6 samples.

Results

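Genes of programmed cell death, of the tumour necrosis factor (TNF) receptor family and of the p53 pathway were followed in cultured mouse muscle satellite cells, the stem cells that build and repair skeletal muscle fibres. Members were chosen by a rule on gene symbols, with earlier results of these data known. They were the caspases (Casp), the BCL2 family, the inhibitor of apoptosis proteins (Birc), TNF ligands (Tnfsf, Tnf, Fasl) and receptors (Tnfrsf, Fas). The rule also took the Traf and Ripk signal relays, the NF-kappaB family, the Gadd45, Mdm, Bag, Dapk and Pdcd genes, and Apaf1, Cflar, Diablo and Aifm1. The rule found 76 genes among the 6373 named features of an array of 10500 features, each with 1 feature. Of these, 70 had values in both groups, and 6 (Casp9, Casp14, Nfkbil1, Pdcd1, Tnfrsf11a and Tnfrsf17) had no value on any array. Trp53, Bax, Casp8, Tnfsf12, Traf2, Ripk1 and Nfkb1 were not analysed here.

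For the differentiated cultures, fibroblast growth factor was withdrawn for 72 hours, and the medium held 10% horse serum with insulin at 1 mM, as labelled. Proliferating cultures were kept in growth medium with basic fibroblast growth factor at 6.6 ng/ml. All cultures came from pooled hind limb muscles of 3 adult male Swiss Webster mice, an outbred stock, and each mouse gave 1 culture of each kind. Cultures with the same number were taken as the same mouse, which no label states. Every culture had passed through preplating for 5 days, which removes cells that stick quickly to plastic. RNA from each whole culture was labelled with biotin and hybridised to 1 CodeLink array, a 1-colour array of short DNA probes, giving 3 arrays per group. A culture holds all the cells on a dish, so fewer cells of a type and less RNA per cell cannot be told apart.

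Cells can be told to die from outside or from within. A TNF family ligand that binds a death receptor gathers adaptor proteins and starter caspases, or, through other adaptors, frees the transcription factor NF-kappaB, which switches on survival and inflammation genes. Damage inside the cell acts through the BCL2 family at the mitochondrion, where cytochrome c is released, the Apaf1 apoptosome forms, and executioner caspases cut their targets. The p53 protein answers DNA damage with growth arrest or with death, and MDM2 marks it for destruction. In muscle, caspases and TNF signals are also known for roles in myoblast fusion and in regeneration.

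The values are scaled intensities with array medians between 0.883 and 0.939, and no detection call was used. An intensity under 0.179, the 25th percentile of all positive values, is called dim below. Low intensities were held at a floor of 0.0236 before taking log2, so dim values span the range from that floor up to 0.179. Differences are differentiated minus proliferating on the log2 scale, with the standard error of the limma fit without a term for mouse. That same error is printed where the adjusted p comes from a fit with such a term. Levels of different genes come from different probes, so their order and the sums of lists below say nothing of relative amounts of RNA. Of the 70 members, 8 (11.4%) were dim on average in both groups, against 19.3% of all features tested.

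As a check of the label, the 6 measured genes of a myoblast list, among them Myod1 and Myog, were above the dim level in both groups, with summed intensities of 239 to 528 in differentiated cultures and 224 to 441 in proliferating cultures. A list of 7 differentiated muscle genes summed to 989 to 1521 in differentiated cultures and to 96.5 to 600 in proliferating cultures. The proliferating culture of mouse 1 had the highest sum of its group. Markers of other cells were measured too. A macrophage list of 13 genes summed to 1.74 to 3.42 in differentiated and 1.41 to 2.59 in proliferating cultures, and 7 of the 13 were dim in both groups, including Ptprc and Tyrobp. The 7 endothelial genes summed to 0.513 to 1.33 in differentiated and 0.531 to 1.07 in proliferating cultures, with 5 dim in both. A lymphocyte list of 8 genes summed to 5.14 to 12.8 in differentiated cultures and 2.52 to 4.23 in proliferating cultures, and the ranges did not overlap. Within that list Cd3g and Cd79a had the highest mean intensities. Cd3g had 2.00, 0.989 and 9.01 in differentiated cultures, against 1.11, 0.108 and 0.0782 in proliferating cultures. Cd79a had 1.51, 4.17 and 2.73 in differentiated cultures, against 1.26, 2.97 and 1.78 in proliferating cultures. Cd4 differed by 0.12 ± 0.43. Cd3d, Cd3e and Ms4a1 were under the dim level in all 3 proliferating cultures. A fibroblast list of 8 genes summed to 51.4 to 190 in differentiated and 42.4 to 80.9 in proliferating cultures. Its gene Tcf21 alone had 188, 62.0 and 48.9 in differentiated cultures, against 77.6, 66.5 and 38.5 in proliferating cultures, and Lum, Thy1 and Dcn were dim in both groups. The 2 adipocyte genes summed to 0.253 to 2.24 in differentiated and 0.530 to 2.91 in proliferating cultures. In these lists of other cells, 1 gene rose (Cd3d) and 1 fell (Fbln1) in the random-effect fit described next, and the part of these cells in the results below was not tested.

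In the limma fit of all 10186 features without a mouse term, 0 of the 70 members passed an adjusted p of 0.05 in either direction, where 0.285% of all features passed as higher and 1.01% as lower in differentiated cultures. At an unadjusted p under 0.05 the members counted 3 higher and 5 lower, or 4.29% and 7.14%, beside 7.82% and 7.09% of all features. With mouse as a random effect, 3 members rose (Bag1, Bcl2l2 and Tnfrsf19) and 2 fell (Casp2 and Cflar), which is 4.29% and 2.86% of the members, beside 5.07% and 5.28% of all features. With mouse as a fixed term 0 members passed, where 0.56% of all features were called higher and 0.874% lower. The members' shares were near or under the background in each of these counts. Throughout, "rose" and "fell" refer to the random-effect fit, and each such call of a member was lost without the mouse term.

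The 2 groups did not overlap for 14 members. Of these, 8 were higher in every differentiated culture than in every proliferating one (Bag1, Bak1, Bcl2l2, Birc2, Pdcd5, Pdcd7, Tnfrsf19 and Tnfrsf4), or 11.4% beside 10.9% of all features. The other 6 were lower (Casp2, Casp6, Cflar, Mdm2, Traf4 and Tnfrsf10b), or 8.57% beside 9.8% of all features. Within mice, 26 members (37.1%) were higher in the differentiated culture of all 3 mice and 10 (14.3%) were lower in all 3, beside 31% and 18% of all features. The median difference was 0.26 over the 70 members and 0.20 over all features, and 42 members (60%) were positive, beside 61.4% of all features. After quantile normalization, which moved the median of all features to 0.04, 35 of the 70 members were positive and their median was 0.00303. Differences beyond 1 in either direction were found for 15 members (21.4%) and for 24.7% of all features.

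**Figure D1:**
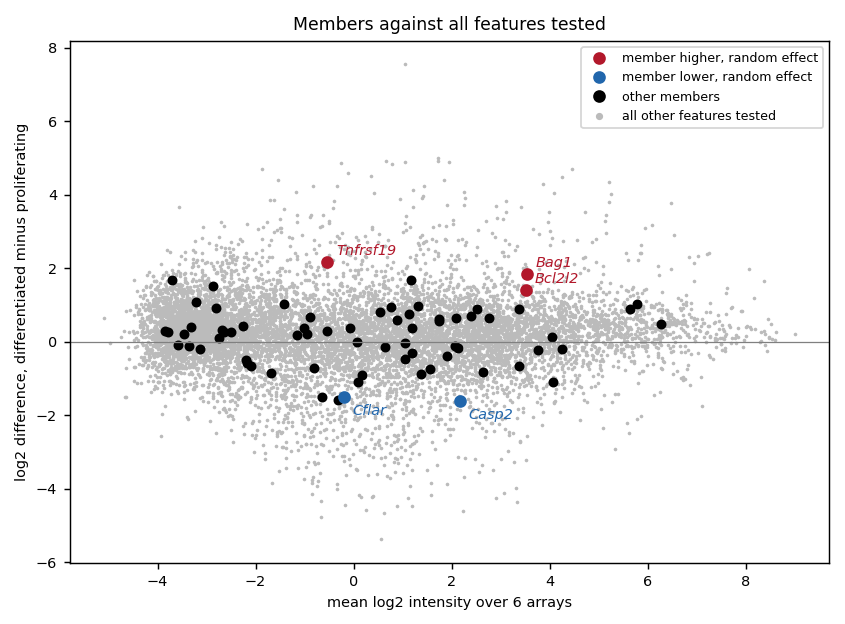
Log2 difference (differentiated minus proliferating, vertical axis) against the mean log2 intensity over 6 arrays (horizontal axis), 1 point per feature, with the 70 members in black or colour over the other features in grey. The 3 members that rose with the random effect (Bag1, Bcl2l2 and Tnfrsf19) are red and the 2 that fell (Casp2 and Cflar) blue, and the members lie between -1.61 and 2.16, inside the spread of the grey points.

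**Figure D2:**
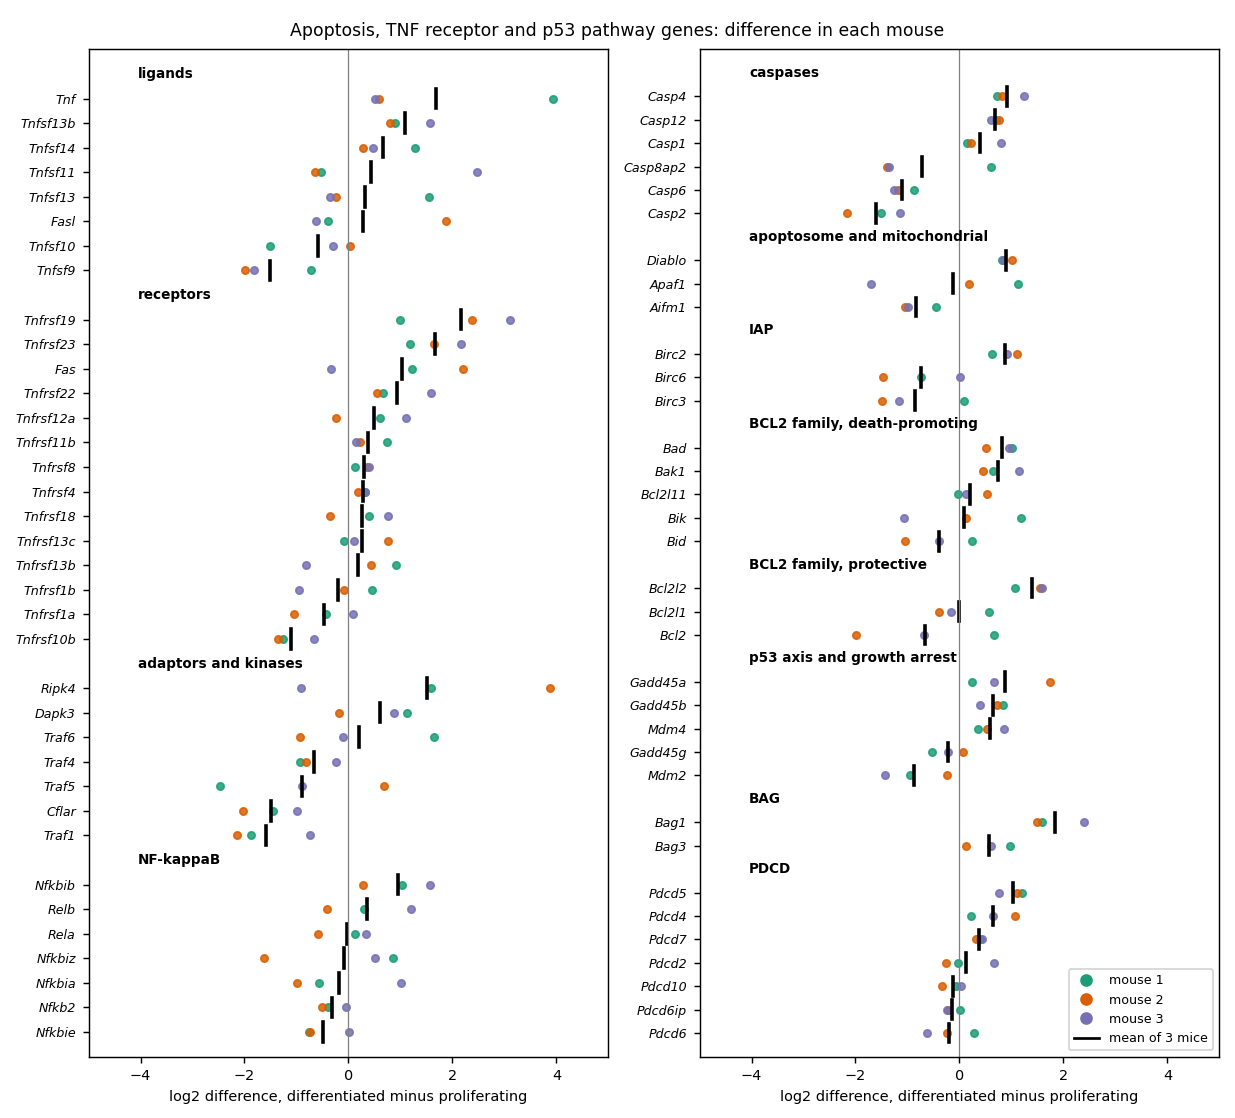
Log2 difference (differentiated minus proliferating) of each member in the 3 mice (1 point per mouse, the black bar their mean), by role. The member medians were 0.37, 0.09 and 0.13 in mice 1, 2 and 3, beside 0.37, 0.09 and 0.09 for all features.

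The TNF family ligands, the secreted or membrane-bound signals of the pathway, gave no call. Of 8 ligands, 0 passed any of the 3 fits, and 2 (Fasl and Tnfsf13b) were dim on average in both groups. A positive difference was found for 6 ligands, beside 61.4% of all features. Tnf, the founding cytokine of the family, had intensities of 0.359, 0.123 and 0.0594 in the differentiated cultures of mice 1, 2 and 3, against 0.00853, 0.0820 and 0.0417 in the proliferating cultures. Tnf was thus higher in the differentiated culture of each mouse, but the groups overlapped and 5 of its 6 values were dim (log2 difference 1.67 ± 0.75, limma adjusted p = 0.346, and 0.140 with the random effect). Tnfsf9, the ligand of the T cell costimulator 4-1BB, went the other way, with 0.297, 0.335 and 0.554 in differentiated cultures, against 0.487, 1.32 and 1.95 in proliferating cultures. It was lower in the differentiated culture of all 3 mice, with overlapping groups (-1.50 ± 0.60, limma adjusted p = 0.290, and 0.0530 with the random effect). Fasl, the ligand of the Fas death receptor, was dim on all 6 arrays, with a difference of 0.29 ± 0.67. Among ligands outside the naming rule, looked at after their values were seen, Tnfsf13b (BAFF, a B cell survival factor) and Tnfsf14 (LIGHT) were also higher in the differentiated culture of all 3 mice, by 1.08 ± 0.61 and 0.67 ± 0.44, with adjusted p of 0.468 and 0.536 by limma. The Tnfsf13b values were 0.221, 0.178 and 0.0981 in differentiated cultures, against 0.119, 0.103 and 0.0333 in proliferating cultures, near or under the dim level.

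Of the 14 receptors, 11 had a positive difference, 6 were higher in all 3 mice and 1 was lower in all 3. Over all features, 61.4% were positive, 31% were higher in all 3 mice and 18% lower. Tnfrsf19, also named TROY, a receptor without a death domain that can signal to the kinase JNK, had intensities of 1.48, 1.41 and 1.45 in the differentiated cultures, against 0.748, 0.273 and 0.169 in the proliferating cultures. The 3 differentiated values lay close together and above all proliferating ones. The highest proliferating value was that of mouse 1, whose culture also had the highest sum of differentiated muscle genes in its group. A link between these was not tested. Tnfrsf19 rose with the random effect, a 4.46-fold difference (2.16, standard error 0.59 without the mouse term and 0.44 with the random effect). Its limma adjusted p was 0.0232 with the random effect, against 0.128 without the mouse term and 0.0935 with a fixed mouse term. When each array was left out in turn the random-effect call held in 1 of 6 fits, with adjusted p up to 0.0824. Without the proliferating array of mouse 1, the difference was 2.76 and it passed the limma fit without a mouse term as well (adjusted p = 0.0434). Of all features, 91 passed as higher in that fit. With any other single array left out, 0 members passed as higher without a mouse term, where 0 to 8 of all features did.

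Tnfrsf10b, the mouse death receptor for TRAIL, had 0.433, 0.927 and 0.959 in differentiated cultures, against 1.04, 2.38 and 1.52 in proliferating cultures. All differentiated values lay under all proliferating ones (-1.10 ± 0.52, limma adjusted p = 0.378, and 0.0803 with the random effect). Tnfrsf22 and Tnfrsf23, the decoy TRAIL receptors of the mouse, which bind the ligand without a death domain, are neighbours on chromosome 7 and were looked at after their values were seen. Tnfrsf23 had 8.496, 1.55 and 4.93 in differentiated cultures, against 3.75, 0.495 and 1.10 in proliferating cultures. Tnfrsf22 had 2.82, 1.31 and 3.46 in differentiated cultures, against 1.78, 0.892 and 1.15 in proliferating cultures. Both decoys were higher in the differentiated culture of each mouse, with overlapping groups, by 1.67 ± 0.87 and 0.94 ± 0.53, and neither passed (limma adjusted p = 0.428 and 0.467, and 0.0821 and 0.137 with the random effect). Their ligand Tnfsf10 (TRAIL) had a difference of -0.59 ± 0.65.

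The receptors through which TNF itself signals did not pass. Tnfrsf1a, the broadly made TNF receptor with a death domain, had 2.63, 0.930 and 2.25 in differentiated cultures, against 3.53, 1.93 and 2.13 in proliferating cultures. The groups overlapped, and the 95% interval of the difference ran from -1.70 to 0.77 (-0.47 ± 0.54). Tnfrsf1b, the second TNF receptor, found mostly on immune and endothelial cells, was dim on average in both groups (-0.20 ± 0.62). Fas had 0.283, 1.20 and 0.453 in differentiated cultures, against 0.121, 0.261 and 0.574 in proliferating cultures. It was higher in the differentiated cultures of mice 1 and 2 and lower in that of mouse 3 (1.03 ± 0.73, limma adjusted p = 0.582).

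Tnfrsf12a, or Fn14, the receptor of the TWEAK cytokine and known for its induction in injured muscle, had 144, 54.2 and 99.7 in differentiated cultures, against 94.8, 64.0 and 46.0 in proliferating cultures. The groups overlapped, mouse 2 went against the other two, and the 95% interval of the difference ran from -0.71 to 1.69 (0.49 ± 0.52). Tnfrsf18 (GITR) and Tnfrsf4 (OX40), T cell costimulators that are neighbours on chromosome 4, had small differences of 0.27 ± 0.69 and 0.27 ± 0.39. Tnfrsf18 was dim on all 6 arrays, and its sign turned negative under quantile normalization. Tnfrsf4, named after its values were seen because its groups did not overlap, had 0.213, 0.195 and 0.174 in differentiated cultures, against 0.170, 0.171 and 0.141 in proliferating cultures.

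**Figure D3:**
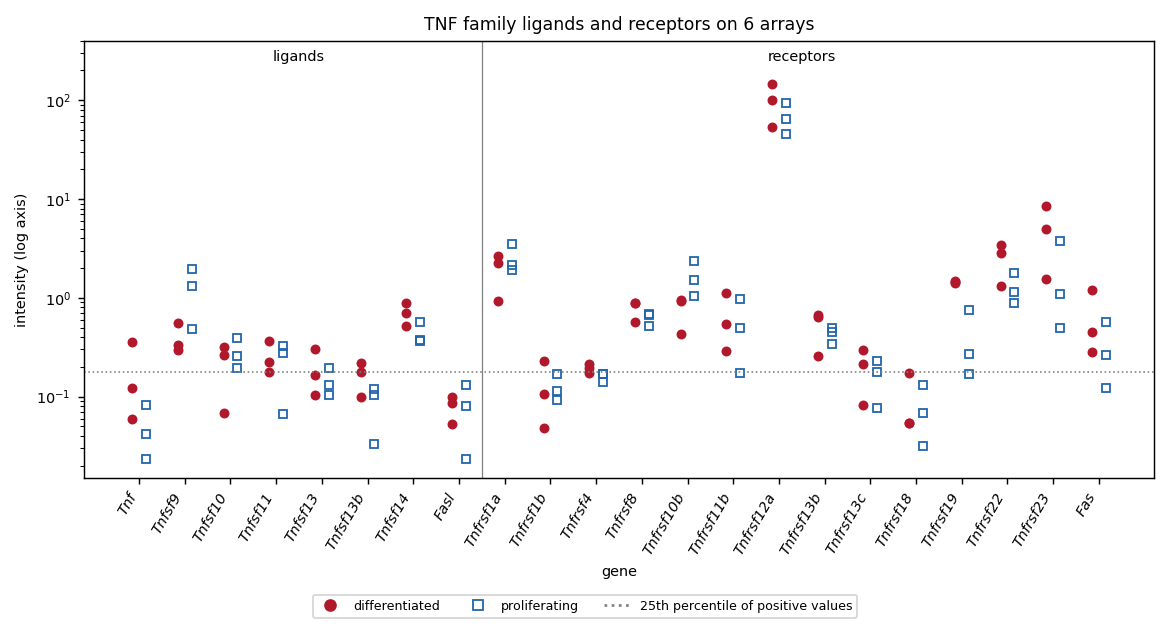
Intensity (log axis) of the TNF family ligands and receptors in 3 differentiated and 3 proliferating cultures, 1 point per array; the dotted line marks the dim level of 0.179 and values under 0.0236 are drawn at that floor. Tnfrsf19 was higher in every differentiated culture and Tnfrsf10b lower, while most other genes overlapped and many ligand values lay under the dotted line.

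Among the 7 adaptors and kinases that relay receptor signals, 3 differences were positive, 0 members were higher in all 3 mice, and 3 were lower in all 3. The shares of all features were 61.4% positive, 31% higher in all 3 mice and 18% lower. Cflar encodes FLIP, the caspase-8 look-alike that blocks death receptor signals. Its intensities were 0.655, 0.470 and 0.450 in differentiated cultures, against 1.80, 1.93 and 0.896 in proliferating cultures. Every differentiated value lay under every proliferating one, and Cflar fell in the fit with the random effect, a 2.82-fold difference (-1.50 ± 0.47, limma adjusted p = 0.0290, against 0.185 without the mouse term and 0.0913 with a fixed one). With each array left out in turn the call held in 1 of 6 fits, with adjusted p up to 0.0983.

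Traf1, an adaptor made mostly in activated immune cells, had 0.324, 0.757 and 0.405 in differentiated cultures, against 1.19, 3.36 and 0.676 in proliferating cultures. It was lower in the differentiated culture of each mouse, but the highest differentiated value passed the lowest proliferating one (-1.59 ± 0.66, limma adjusted p = 0.312, and 0.0579 with the random effect). Traf4, named after its values were seen, had 10.1, 5.78 and 9.55 in differentiated cultures, against 19.2, 10.2 and 11.2 in proliferating cultures, without overlap but close at the boundary (-0.66 ± 0.46, limma adjusted p = 0.577). Traf6, the adaptor of interleukin-1 and Toll-like receptors, was dim on all 6 arrays, its difference was 0.21 ± 0.57, and its sign turned negative under quantile normalization.

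The NF-kappaB genes, comprising the DNA-binding subunits and the IkappaB proteins that hold them in the cytoplasm, gave no call: of 7 members, 0 passed any fit, 2 had a positive difference and 5 a negative one. A positive difference was found for 61.4% of all features. Rela, the main activating subunit, had 3.37, 1.05 and 2.37 in differentiated cultures, against 3.08, 1.57 and 1.86 in proliferating cultures. The groups overlapped in full, and the 95% interval of the difference ran from -1.31 to 1.24 (-0.03 ± 0.56). Nfkbia, the IkappaB alpha inhibitor and itself a target of NF-kappaB, had 2.04, 6.01 and 5.65 in differentiated cultures, against 3.01, 12.0 and 2.82 in proliferating cultures. The proliferating culture of mouse 2 stood far above the other 2 of its group, and the difference was -0.18 ± 0.71. Nfkbib, the beta inhibitor, had 4.42, 2.00 and 4.64 in differentiated cultures, against 2.16, 1.65 and 1.56 in proliferating cultures. It was higher in the differentiated culture of each mouse, with the groups overlapping at mouse 2 (0.96 ± 0.48, limma adjusted p = 0.405, and 0.119 with the random effect). Nfkbie, another inhibitor, and Nfkbiz, an atypical nuclear relative, had differences of -0.50 ± 0.44 and -0.09 ± 0.67, and Nfkbiz was dim on average in both groups.

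Members of this group are known to be switched on by NF-kappaB in a feedback loop, so the DNA just before their start sites was read. Windows of 250 bases before the annotated start (RefSeq, GRCm38.p6) were found for 61 of the 70 members, 75 windows in all, since some genes have several starts. An NF-kappaB consensus motif of 10 bases, searched on both strands, lay in 13.3% of the member windows (10 windows of 7 genes: Aifm1, Bcl2l1, Casp4, Nfkb2, Nfkbia, Nfkbie and Tnfrsf8), against 3.9% of all 32851 windows. The windows of Nfkb2 and of Casp4 count more than once and in part overlap. In the pair shown for the feedback loop, the capitals mark the motif. The window of Nfkbia is chr12:55492648-55492897 on the minus strand and that of Nfkb2, its first of 3, is chr19:46304487-46304736 on the plus strand, each printed 5′ to 3′ toward the start site.
Nfkbia: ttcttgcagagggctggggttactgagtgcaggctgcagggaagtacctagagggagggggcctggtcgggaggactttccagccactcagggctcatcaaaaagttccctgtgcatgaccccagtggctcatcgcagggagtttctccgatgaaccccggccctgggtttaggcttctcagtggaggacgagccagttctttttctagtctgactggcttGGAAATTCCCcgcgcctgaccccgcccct
Nfkb2: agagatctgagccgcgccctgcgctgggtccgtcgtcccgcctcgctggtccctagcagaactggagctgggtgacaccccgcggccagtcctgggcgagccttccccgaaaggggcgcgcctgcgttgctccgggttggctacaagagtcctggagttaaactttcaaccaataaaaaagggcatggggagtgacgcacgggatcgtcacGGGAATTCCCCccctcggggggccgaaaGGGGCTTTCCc
The match of Nfkbia begins 29 bases before the start, and Nfkb2 has 3 matches, of which those beginning 39 and 38 bases before the start overlap. Of the 7 genes with a match, 0 passed any of the 3 fits, and Nfkb2 had a difference of -0.32 ± 0.55.

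The caspases are the cysteine proteases that carry out apoptosis or inflammation. Of 5 caspases and Casp8ap2, a nuclear protein that can bind caspase-8, 3 were higher and 2 were lower in the differentiated culture of all 3 mice. Over all features, 31% were higher and 18% lower in all 3. Casp2, an initiator caspase activated on the PIDDosome complex, had 2.75, 2.74 and 2.24 in differentiated cultures, against 7.81, 12.3 and 4.98 in proliferating cultures. The differentiated values were close together and all lay under the proliferating ones. Casp2 fell in the fit with the random effect, a 3.05-fold difference (-1.61 ± 0.47, limma adjusted p = 0.0218, against 0.151 without the mouse term and 0.0832 with a fixed one). That call held in 2 of 6 fits that each left out 1 array, with adjusted p up to 0.0737.

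The other PIDDosome components were on lists of pathway genes outside the rule. Pidd1, the scaffold of the complex and a p53 target, had 0.162, 0.283 and 0.164 in differentiated cultures, against 1.18, 0.759 and 0.771 in proliferating cultures. Pidd1 fell as well with the random effect, a 4.51-fold difference (-2.17 ± 0.45, limma adjusted p = 0.00964, against 0.0644 without the mouse term). Its differentiated values of mice 1 and 3 were dim. Cradd, the adaptor between Pidd1 and caspase-2, had 3.94, 1.95 and 4.81 in differentiated cultures, against 1.45, 1.54 and 1.32 in proliferating cultures, the opposite direction without overlap (1.22 ± 0.47, limma adjusted p = 0.280, and 0.0700 with the random effect). Cradd was picked for this comparison after its values were seen.

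Casp6, an executioner that cuts lamins, had 16.0, 11.3 and 8.41 in differentiated cultures, against 29.4, 25.6 and 20.05 in proliferating cultures. The groups were well apart (-1.10 ± 0.44), and the limma adjusted p was 0.291 without the mouse term and 0.0517 with the random effect. With quantile normalization and the random effect together it passed (adjusted p = 0.0230). Casp1, Casp4 and Casp12 belong to the inflammatory branch and lie side by side on chromosome 9. All 3 were higher in the differentiated culture of each mouse, by 0.39 ± 0.74, 0.92 ± 0.61 and 0.69 ± 0.45, and none passed in limma (adjusted p of 0.873, 0.545 and 0.544). Casp1 was dim on average in both groups and Casp4 in the proliferating cultures, so their differences rest in large part on dim values. Casp12, linked to the endoplasmic reticulum, had 9.23, 6.59 and 4.90 in differentiated cultures, against 5.64, 3.88 and 3.23 in proliferating cultures.

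The apoptosome and mitochondrial factors gave 0 calls among 3 genes. Apaf1, the scaffold that cytochrome c assembles into the apoptosome, was dim on 5 of 6 arrays, with a difference of -0.13 ± 0.83. Diablo (Smac), which leaves mitochondria and blocks the inhibitor of apoptosis proteins, had 21.4, 8.54 and 15.1 in differentiated cultures, against 12.1, 4.25 and 8.48 in proliferating cultures. Within each mouse the differentiated culture was higher, but the groups overlapped across mice (0.89 ± 0.56, limma adjusted p = 0.522, and 0.147 with the random effect). Aifm1, a mitochondrial flavoprotein that can carry death signals to the nucleus, had 7.56, 4.09 and 3.29 in differentiated cultures, against 10.3, 8.41 and 6.58 in proliferating cultures, lower within each mouse (-0.83 ± 0.47, limma adjusted p = 0.477).

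The inhibitor of apoptosis proteins, ubiquitin ligases that restrain caspases and steer TNF signals, were split. Birc2 (cIAP1) had 8.67, 8.42 and 6.32 in differentiated cultures, against 5.59, 3.93 and 3.35 in proliferating cultures, with no overlap (0.88 ± 0.42, limma adjusted p = 0.381, and 0.0901 with the random effect). Its chromosome 9 neighbour Birc3 (cIAP2), a gene switched on by NF-kappaB, had 0.415, 0.243 and 0.121 in differentiated cultures, against 0.393, 0.682 and 0.271 in proliferating cultures. Birc3 overlapped between groups, with a difference of the opposite sign (-0.86 ± 0.59). Birc6, a very large ligase of the family, had a difference of -0.73 ± 0.45 with overlapping groups. The difference between Birc2 and Birc3 was not tested.

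Within the BCL2 family, the protective members and the death-promoting members each held 1 gene that was higher in every differentiated culture than in every proliferating one. Bcl2l2, or BCL-W, which protects the mitochondrion, had 22.4, 18.04 and 15.7 in differentiated cultures, against 10.6, 6.14 and 5.25 in proliferating cultures. Every differentiated value lay above every proliferating one. Bcl2l2 rose 2.64-fold with the random effect (1.40 ± 0.45, limma adjusted p = 0.0271, against 0.193 without the mouse term and 0.0832 with a fixed one), and the call held in 1 of 6 fits that each left out 1 array, with adjusted p up to 0.103.

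The 2 classic protectors did not pass. Bcl2 itself had 0.284, 0.108 and 0.209 in differentiated cultures, against 0.179, 0.426 and 0.337 in proliferating cultures (-0.67 ± 0.55, limma adjusted p = 0.646). Bcl2l1, which encodes BCL-XL, had 1.61, 0.644 and 1.10 in differentiated cultures, against 1.09, 0.848 and 1.23 in proliferating cultures. Bcl2l1 overlapped in full, the 95% interval of its difference ran from -1.10 to 1.10, and the sign of its near-zero difference turned under quantile normalization.

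Of the 5 death-promoting members, 4 had a positive difference, beside 61.4% of all features, and 0 passed. Bak1, which forms pores in the mitochondrial outer membrane, had 2.95, 2.13 and 3.67 in differentiated cultures, against 1.89, 1.55 and 1.66 in proliferating cultures. Its groups did not overlap (0.75 ± 0.42, limma adjusted p = 0.464, and 0.142 with the random effect). Bad, a sensor that growth factor signals switch off, was higher in the differentiated culture of each mouse (0.82 ± 0.53), and Bid, which links death receptors to mitochondria, had a difference of -0.40 ± 0.70, with 7.84, 1.30 and 3.39 in differentiated cultures, against 6.65, 2.70 and 4.43 in proliferating cultures. In both groups Bid was highest in mouse 1 and lowest in mouse 2.

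The BAG proteins are co-chaperones that bind Hsp70, and Bag1 also binds BCL2 and is known as a survival factor. Bag1 had 17.3, 27.4 and 22.0 in differentiated cultures, against 5.75, 9.69 and 4.17 in proliferating cultures. The lowest differentiated value lay well above the highest proliferating one, and mouse 2 was the highest in both groups. Bag1 rose 3.56-fold with the random effect (1.83 ± 0.47, limma adjusted p = 0.0151, against 0.113 without the mouse term and 0.0716 with a fixed one). Of the members called, it held in the most fits that left out 1 array, 5 of 6, with adjusted p up to 0.0606. It also passed without a mouse term when a pseudocount replaced the floor (1.80, limma adjusted p = 0.0391) and with a trended, robust prior (adjusted p = 0.0377). Bag3, the BAG protein of the muscle Z-disc and of chaperone-assisted autophagy, had 7.70, 2.11 and 4.20 in differentiated cultures, against 3.93, 1.94 and 2.75 in proliferating cultures, higher within each mouse with overlapping groups (0.57 ± 0.57, limma adjusted p = 0.727).

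**Figure D4:**
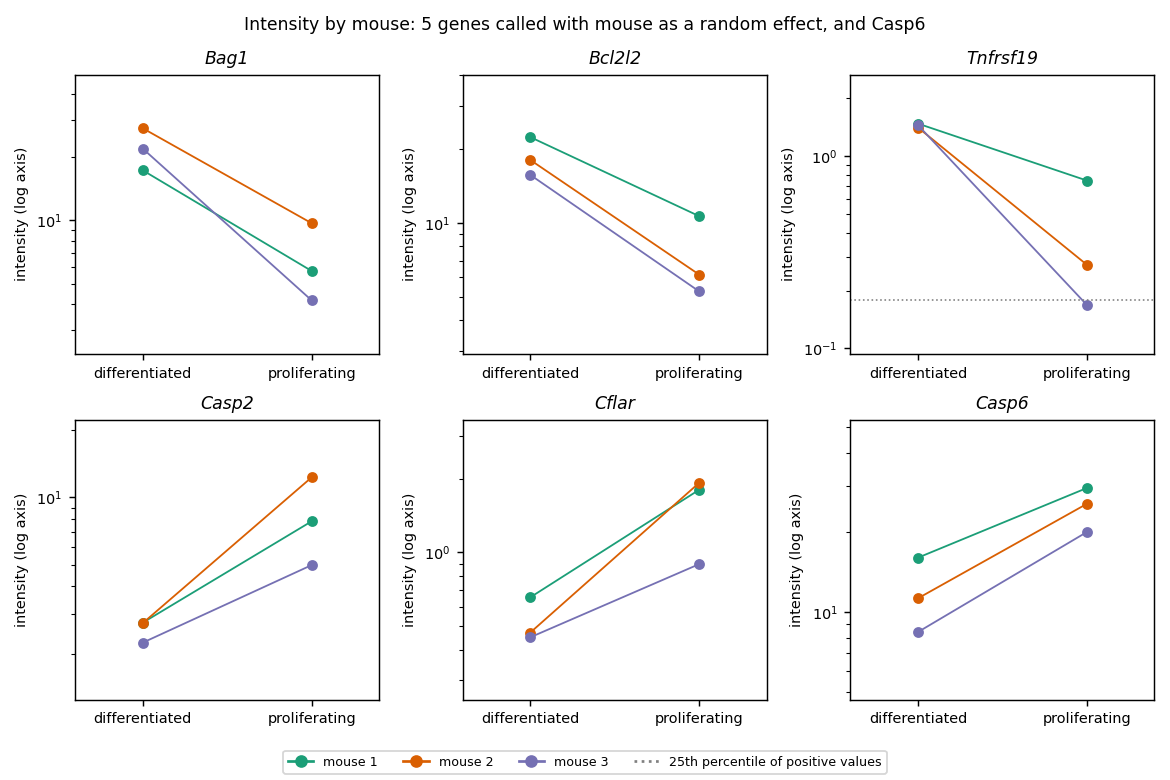
Intensity (log axes) of Bag1, Bcl2l2, Tnfrsf19, Casp2, Cflar and Casp6 in the differentiated and proliferating cultures, with a line joining the cultures of each mouse and the dim level of 0.179 dotted in the only panel that reaches it, Tnfrsf19. In the 3 mice every line runs the same way for each gene: the differentiated culture is higher for Bag1, Bcl2l2 and Tnfrsf19 and lower for Casp2, Cflar and Casp6.

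The p53 axis was represented by the p53 regulators Mdm2 and Mdm4 and by the Gadd45 genes, small stress proteins that take part in growth arrest and in p38 signalling. Of these 5 genes, 0 passed and 3 were higher in all 3 mice, beside 31% of all features. Mdm2, the ubiquitin ligase of p53 and itself a p53 target, had 1.79, 3.03 and 1.28 in differentiated cultures, against 3.47, 3.58 and 3.46 in proliferating cultures. The 3 proliferating values were nearly equal and lay above all differentiated ones (-0.88 ± 0.46, limma adjusted p = 0.426, and 0.132 with the random effect). Mdm4, its inhibitory partner, was higher in the differentiated culture of each mouse (0.58 ± 0.45, limma adjusted p = 0.622).

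Gadd45a, a p53 target, had 64.5, 90.6 and 53.7 in differentiated cultures, against 54.7, 27.0 and 33.9 in proliferating cultures, higher within each mouse but overlapping across mice (0.88 ± 0.46, limma adjusted p = 0.428). Gadd45b, a target of NF-kappaB and TGF-beta signals, had 9.76, 6.51 and 9.84 in differentiated cultures, against 5.44, 3.93 and 7.51 in proliferating cultures (0.65 ± 0.45, limma adjusted p = 0.562). Gadd45g had 11.7, 8.36 and 19.8 in differentiated cultures, against 16.8, 7.999 and 22.9 in proliferating cultures, with a difference near 0 (-0.22 ± 0.56). The 3 paralogs were thus not all on one side, and none passed.

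The windows before the start sites were also searched for a p53 half-site of 10 bases on both strands. It lay in 6.67% of the member windows (5 windows, of Fasl, Gadd45a, Mdm2, Pdcd7 and Tnfsf13b), against 7.13% of all windows. Shown here are the windows of Gadd45a and Mdm2, which are known p53 targets, with the match in capitals. Gadd45a lies at chr6:67037408-67037657 and Mdm2 at chr10:117710759-117711008, both read on the minus strand and printed toward the start site. The best known p53 sites of both genes lie inside the gene, outside these windows.
Gadd45a: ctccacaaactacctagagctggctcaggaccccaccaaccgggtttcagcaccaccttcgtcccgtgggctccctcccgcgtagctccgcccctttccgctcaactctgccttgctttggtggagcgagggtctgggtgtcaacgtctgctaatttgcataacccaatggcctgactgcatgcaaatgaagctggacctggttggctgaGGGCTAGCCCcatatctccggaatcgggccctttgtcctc
Mdm2: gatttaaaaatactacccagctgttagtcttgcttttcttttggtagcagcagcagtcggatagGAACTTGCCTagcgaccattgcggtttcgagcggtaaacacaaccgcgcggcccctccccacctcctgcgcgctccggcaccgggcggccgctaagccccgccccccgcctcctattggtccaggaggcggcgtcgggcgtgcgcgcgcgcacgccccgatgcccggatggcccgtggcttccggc
The matches begin 40 bases before the start of Gadd45a and 186 bases before that of Mdm2. The E-box CANNTG, the core letters bound by MyoD and myogenin, lay in 62.7% of the member windows and in 66.2% of all windows. Among the 5 members that passed with the random effect, only Tnfrsf19 had one in these windows. Its first window, chr14:61046856-61047105 on the minus strand, is shown with its 3 E-boxes in capitals.
Tnfrsf19: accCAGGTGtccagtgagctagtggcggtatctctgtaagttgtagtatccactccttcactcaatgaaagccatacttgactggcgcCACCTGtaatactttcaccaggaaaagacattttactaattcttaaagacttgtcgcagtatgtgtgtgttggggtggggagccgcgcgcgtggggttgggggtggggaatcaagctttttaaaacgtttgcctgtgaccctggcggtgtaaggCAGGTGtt
These E-boxes begin 247, 162 and 8 bases before the start. A match of letters is a description of the window and not a binding site.

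The programmed cell death (Pdcd) genes share a name and not a family: of 7, 4 had a positive difference, beside 61.4% of all features, and 0 passed. Pdcd5, a small nuclear protein whose level is known to climb in apoptotic cells, had 114, 74.4 and 57.6 in differentiated cultures, against 49.5, 34.5 and 34.0 in proliferating cultures. Its groups did not overlap, with mouse 1 highest in both (1.02 ± 0.45, limma adjusted p = 0.337, and 0.0676 with the random effect). Pdcd4, an inhibitor of translation and a tumour suppressor, had 3.50, 8.97 and 4.77 in differentiated cultures, against 3.01, 4.30 and 3.03 in proliferating cultures, higher within each mouse (0.64 ± 0.49, limma adjusted p = 0.610). Pdcd7, named after its values were seen for groups that did not overlap, differed by 0.38 ± 0.39. Pdcd2, Pdcd6, Pdcd6ip and Pdcd10, which also fell outside the naming rule, had differences between -0.20 and 0.13.

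Genes of the same pathways that the symbol rule leaves out were counted from 9 lists of 137 genes, of which 82 were tested. Without the mouse term 0 passed as higher and 3 as lower, and with the random effect 5 rose and 9 fell, with a median difference of 0.19. The 3 lower calls are 3.66% of the 82 genes, beside 1.01% of all features, and the random-effect calls are 6.1% higher and 11% lower, beside 5.07% and 5.28% of all features. These lists were chosen with earlier results of these data known. Their shares, here and list by list below, are therefore a description and not a test. All 3 calls without the mouse term were genes of p53 or NF-kappaB target lists. Gtse1, a G2 and S phase protein that binds p53 and restrains it, had 0.657, 0.606 and 0.464 in differentiated cultures, against 6.59, 5.55 and 4.52 in proliferating cultures (-3.27 ± 0.41, limma adjusted p = 0.0201). Psrc1, a spindle protein also named DDA3, had 1.70, 1.85 and 1.60 in differentiated cultures, against 7.63, 12.7 and 7.30 in proliferating cultures (-2.38 ± 0.42, limma adjusted p = 0.0429). Both are known for work in dividing cells.

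Of 19 tested p53 target genes, 1 (5.26%) rose and 5 (26.3%) fell with the random effect, beside 5.07% and 5.28% of all features. Cdkn1a, which encodes the p21 inhibitor of the cell cycle and is also switched on by MyoD, rose (1.32 ± 0.50, limma adjusted p = 0.0426 with the random effect), with 133, 104 and 58.4 in differentiated cultures, against 55.5, 32.5 and 28.8 in proliferating cultures. Zmat3 (-1.21 ± 0.46) and Thbs1 (-2.03 ± 0.66), an RNA-binding protein and the matrix protein thrombospondin, fell beside Gtse1, Psrc1 and Pidd1 (limma adjusted p = 0.0460 and 0.0212 with the random effect). Among 10 regulators and partners of p53, the checkpoint kinases Chek1 (-2.98 ± 0.63) and Chek2 (-1.38 ± 0.49) fell and the p53 relative Trp63 rose (2.41 ± 0.60), with limma adjusted p of 0.0157, 0.0483 and 0.0251 with the random effect.

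Of 12 tested targets of NF-kappaB and TNF, 2 rose and 2 fell with the random effect, 16.7% each way beside 5.07% and 5.28% of all features. Vcam1, an adhesion molecule of myoblasts and endothelium, had 0.558, 0.410 and 1.25 in differentiated cultures, against 5.64, 5.54 and 6.07 in proliferating cultures, and passed without the mouse term too (-3.13 ± 0.51, limma adjusted p = 0.0335). Csf1, the macrophage growth factor, fell (-2.22 ± 0.61), while the chemokine Ccl2 (2.40 ± 0.50) and the mitochondrial superoxide dismutase Sod2 (1.27 ± 0.43) rose, with limma adjusted p of 0.0212, 0.0128 and 0.0322 with the random effect. Among 9 executioner targets and nuclease genes, Cidea, a CIDE-domain protein also known from lipid droplets, rose, with 2.64, 1.99 and 1.15 in differentiated cultures, against 0.616, 0.0927 and 0.0797 in proliferating cultures (3.46 ± 0.81, limma adjusted p = 0.0109 with the random effect and 0.0908 without the mouse term). The 13 tested genes of the mitochondrial arm gave 0 calls, as did 8 receptor adaptors, 5 NF-kappaB kinases and partners, 4 further ligands and 2 further receptors.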

How the data were processed

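RNA of 3 differentiated and 3 proliferating cultures was measured on 1-colour arrays. The deposited values are linear intensities, scaled with the help of spiked bacterial mRNAs per the labels' protocols. Scanner software, background method and scaling step were not given in the sources used here. The number of arrays limits the precision.

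Low values were raised to 0.0236, the 1st percentile of all positive ones, before taking log2; log2 medians of the arrays lay within 0.0892, so no scaling followed. The 10186 features with at least 2 values per group entered a linear model per feature (lmFit and eBayes of limma 3.58.1, run in R 4.3.3), with p-values adjusted by Benjamini-Hochberg over all of them at 0.05. The procedure was tested on simulated data. Mouse as a fixed term or as a random effect (duplicateCorrelation, correlation 0.535) was an alternative. Both cultures came from each mouse, per the design text, and cultures with the same number deviated together (correlations 0.42, 0.37 and 0.28), so numbers were read as mice. No label states that the numbers match. The correlations cannot tell a shared mouse from shared handling, so the pairing remains an assumption. Other alternatives were a higher floor, a pseudocount in its place, centring on medians, quantile normalization, a filter on dim features, the prior, the threshold and leaving out each array.

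Genes were named from the platform annotation, and all 76 members matched the GRCm38.p6 gene table. Members, lists and roles were chosen with earlier results of these data known. Members were named in full if they passed any of the 3 fits, were among the 2 smallest p of their role, were among the 3 highest or lowest in mean intensity, or were on a panel of 35 core pathway genes, of which 25 were tested; of the pathway lists, those that passed any fit were named. Promoter windows are from RefSeq.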

Additional observations from a re-analysis of the deposited data

How the results depend on the processing

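The replicate block bore most on the calls: with mouse as a fixed term all features gave 57 higher, and with mouse as a random effect 516 higher and 538 lower, against 29 and 103 without a mouse term, while the members gave 0 with the fixed term and 3 higher and 2 lower with the random effect. Over all features, the floor at the 10th percentile gave 65 higher and 178 lower, a pseudocount 127 and 266, the filter on dim features 57 and 172, a trended and robust prior 125 and 263, an adjusted p under 0.01 0 and 0, and one under 0.1 109 and 231; quantile normalization gave 162 lower. Of the members, 1 was higher (Bag1) with the pseudocount and 1 with the trended prior. Leaving out 1 array without a mouse term gave 0 to 91 features higher, 0 to 88 lower and 0 to 1 members higher, with the 91, the 88 and the 1 (Tnfrsf19) all reached without the proliferating array of mouse 1, and 8 higher and 51 lower without the differentiated array of mouse 1. Without any other single array both counts over all features were 0. With the random effect, leaving out 1 array gave 0 to 3 members higher and 0 to 3 lower. With quantile normalization added to the random effect, 3 members were higher and 4 lower (Casp2, Casp6, Cflar and Tnfsf9). These alternatives were chosen after seeing the data. The share of all features called was not counted in them, so these member counts cannot be set beside a background. In the random-effect fit of all arrays, 5.07% of all features were called higher and 5.28% lower. The members' median of 0.26 was 0.00303 under quantile normalization and 0.0810 to 0.405 with 1 array left out, lowest without the differentiated array of mouse 1. The median of all features moved the same way. It was 0.20 in the main fit, 0.0357 under quantile normalization and 0.0150 to 0.347 with 1 array left out. Of the 41 members named by the rule, 11 changed sign under at least 1 alternative, and 3 (Bcl2l1, Tnfrsf18 and Traf6) under a scaling. The causes were not tested.

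Nearness to background limits the dim members most: the differences of Tnf, Tnfsf13b, Fasl, Apaf1, Casp1, Casp4, Traf6, Nfkbiz, Tnfrsf1b and Tnfrsf18 rest wholly or in large part on dim values. The pseudocount reduced the difference of Tnf to 0.62. Of the pathway-list genes called, Pidd1 and Chek1 had dim values in differentiated cultures, and Cidea and Trp63 had dim values in proliferating cultures. The sizes of their differences rest in part on those values. With 3 arrays per group, intervals of the members are wide, and a p that misses the threshold does not show that a gene did not change.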

Other observations

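The differentiated culture of mouse 2 held the highest values of several genes singled out after their values were seen. Ripk4, a kinase of keratinocyte differentiation, had 0.307, 1.71 and 0.0221 in the differentiated cultures of mice 1, 2 and 3, against 0.103, 0.116 and 0.0447 in proliferating cultures. Trp63, the p53 relative known from epithelial stem cells, had 0.694, 1.85 and 0.783 in differentiated cultures, against 0.377, 0.142 and 0.126 in proliferating cultures. Fas had its highest value, 1.20, in the same culture, and so did the macrophage marker Aif1, with 1.51 there against at most 0.314 on any other array. The rest of the macrophage list did not follow Aif1 as a whole. Lyz1 was also highest in that culture, at 0.178. C1qa, C1qc, Cd52 and Laptm5 were at their lowest there, at 0.0163, 0.0605, -0.0186 and 0.180, and the other listed genes lay in between. The lymphocyte marker Cd3g was highest elsewhere, at 9.01 in the differentiated culture of mouse 3. The share of other cells in these values was not tested.

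Of the 13 tested genes of the mitochondrial arm, which gave no call, the groups did not overlap for Cycs, Bnip3l and Hk2, all higher in differentiated cultures. Among all features, 10.9% were higher without overlap. Cycs, which encodes cytochrome c, the trigger of the apoptosome and a carrier of the respiratory chain, had 161, 132 and 154 in differentiated cultures, against 92.2, 86.6 and 83.4 in proliferating cultures (0.77 ± 0.39, limma adjusted p = 0.407, and 0.108 with the random effect). Bnip3l, a mitophagy receptor, had 32.9, 31.2 and 29.7 in differentiated cultures, against 20.2, 17.1 and 16.9 in proliferating cultures (limma adjusted p = 0.385). Hk2, a hexokinase that can sit on the mitochondrion, had 12.1, 5.21 and 8.27 in differentiated cultures, against 4.61, 4.82 and 1.56 in proliferating cultures (limma adjusted p = 0.351). Bnip3, a relative of Bnip3l, had 53.7, 52.7 and 33.5 in differentiated cultures, against 35.5, 10.9 and 17.7 in proliferating cultures, higher within each mouse with overlapping groups (1.26 ± 0.54, limma adjusted p = 0.320). These genes were named after their values were seen.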
